A study of Mus musculus with 24 samples.

Results

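The comparison described here sets muscle tissues stimulated at 4 Hz directly against tissues stimulated at 1 Hz, with no reference to the unstimulated control, over every gene that could be tested. Its members are the 6 libraries at 1 Hz and the 6 at 4 Hz, 12 of the 24 libraries in the series, chosen by the frequency in their labels. All were made from C2C12 cells, a mouse myoblast line, of the genotype ChR2::tdTomato, in which a cation channel opened by blue light is fused to a red fluorescent protein. Both groups were differentiated on fibrin hydrogels in the same medium with horse serum and IGF-1, were lit for 60 min each day, and differed in the frequency of the light pulses. The replicates of a group were separate wells of 1 cell line, so that p-values measure the spread between wells of this line. In the main fit that spread was taken over all 24 libraries, including groups outside this comparison. The study describes spontaneous twitching in every condition, and the light pulses came on top of it.

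Skeletal muscle adjusts its genes to the pattern in which it is excited. Each contraction releases calcium from the sarcoplasmic reticulum, and the frequency of these transients is read by calcineurin with its NFAT factors and by calmodulin-dependent kinases. In innervated muscle, sustained low-frequency activity is associated with slow fibre proteins and mitochondria, brief high-frequency bursts with fast fibre proteins, and electrical activity of any kind with low transcription of the acetylcholine receptor genes outside the synapse.

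Total estimated counts ranged from 8546524 to 18159144 at 1 Hz and from 8132175 to 13400006 at 4 Hz. The label of muscle held in every library. The 10 myotube markers summed to between 11405 and 16452 TPM (transcripts scaled for length and to a common total) at 1 Hz and to between 13174 and 16449 at 4 Hz, whereas 10 endothelial markers summed to at most 1.55 TPM. Markers of adipocytes, of bone and cartilage, and of neurons and glia, 10 each, summed to at most 160, 93.2 and 50.8 TPM. Most of this came from Car3, Sox9 and Tubb3. The 10 macrophage markers summed to between 62.7 and 103 TPM, nearly all of it from Cd68 (medians of 76.9 and 71.4 TPM at 1 and 4 Hz) and Cd14 (7.70 and 8.47 TPM). The other members stayed at or below 0.862 TPM, and Tyrobp and Fcer1g were listed at 0 in all 12 libraries. The 10 fibroblast markers summed to between 1376 and 2440 TPM at 1 Hz and to between 1399 and 1955 at 4 Hz, most of it from Ly6a, with Col3a1 and Dcn next. All wells were made from 1 line of myoblasts with no other cell type named, and which of its cells held these transcripts was not tested. Replicates 4 and 6 at 1 Hz stood apart from the other 4 libraries of that group. Transcripts of the mitochondrial genome took 3.97% and 4.87% of their counts, against 1.52% to 1.69% in the others, and the mean spliced length of the gene behind a count was 3977 and 4008 bases, against 4344 to 4538. They were also the deepest libraries of the group. Per the labels, samples with little RNA were prepared by ribodepletion and the rest by poly(A) selection, and since the labels do not say which, whether replicates 4 and 6 differ from the others in preparation could not be checked. At 4 Hz the mitochondrial share ran from 0.545% to 8.90% and the mean length from 3944 to 4390 bases, so that replicates 4 and 6 lay inside the range of 4 Hz on both. None of 6 such library measures passed a test between the frequencies (two-sided exact permutation tests, lowest adjusted p = 0.462). Many lists and the counts of genes are therefore given below with and without replicates 4 and 6. They were picked out with their levels of oxidative phosphorylation genes known from earlier work on these data, so that values without them are a description and no independent evidence of a difference.

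No single gene passed the test between 4 Hz and 1 Hz with all 12 libraries. Of 13315 genes tested, 0 (0.00%) passed an adjusted p of 0.05 with an absolute log2(fold change) over 0.5 in edgeR's quasi-likelihood test, and 0 (0.00%) passed the adjusted p alone. At an unadjusted p of 0.05, 1465 genes (11.0%) passed, 610 higher (4.58%) and 855 lower (6.42%) at 4 Hz. With only the 1 and 4 Hz libraries in the fit, 817 of 12799 genes passed. Counts at an unadjusted p in the lists below come from the fit of all 24 libraries, whose other groups varied less. Log2(fold change) was positive for 51.5% of all genes. The split of the 1465 depended on the scale, with 184 higher and 1008 lower on log2(TPM + 1) in limma and 1062 higher and 847 lower in limma-voom with library weights. DESeq2 called 3 genes, C3, Thap2 and Baz1a, with 27 at an adjusted p of 0.05. Among the 27 were Slc4a3, Stk11ip, Gpr15lg, Cry2, Porcn, Sbno2, Trappc13, Chordc1, Ddx10, Polr1g and Rcn1, described below. On log2(TPM + 1) in limma, 0 genes passed that adjusted p. In the main edgeR fit and by the same thresholds, 1988 genes (14.9%) differed between 1 Hz and the control and 3344 (25.1%) between 4 Hz and the control. These 2 comparisons share their control libraries, and neither count tests 4 Hz against 1 Hz.

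The size of what could have been missed is given by the intervals. The median log2(fold change) over all genes was 0.0071, with 5th and 95th percentiles of -0.30 and 0.33, and the median standard error was 0.12. The 95% interval lay within 0.5 of 0 on the log2 scale for 9239 genes (69.4%) and within 1 of 0 for 94.8%. Among the 9073 genes at 10 CPM or more, where CPM are counts scaled to a common library size, these shares were 88.2% and 99.3%. A difference of less than 0.5 was not detectable in many of the other genes, whose intervals reach past it. The intervals hold for each gene alone and are not adjusted for the number of genes tested. Such a difference could therefore miss the adjusted p at 10 CPM or more as well. Libraries varied most at 1 Hz, where the median SD of log2 CPM was 0.24, against 0.20 at 4 Hz, 0.18 at 10 Hz and 0.15 in the control, and it was 0.18 at 1 Hz without replicates 4 and 6.

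The gene with the smallest p was Slc4a3, which encodes an exchanger of chloride for bicarbonate across the plasma membrane (ENSMUSG00000006576, GRCm39 chromosome 1, 75522508 to 75542098, plus strand). Its level ran from 29.9 to 42.3 CPM at 1 Hz (median 36.4) and from 43.5 to 54.8 CPM at 4 Hz (median 48.7). All 6 libraries at 4 Hz lay above all 6 at 1 Hz. The 95% interval of its log2(fold change), 0.44 (standard error 0.08), was 0.28 to 0.61 (edgeR, adjusted p = 0.107), and the value was 0.45 without replicates 4 and 6. The result depended on the tool and scale. The value was 0.43 in DESeq2 (Wald test, adjusted p = 0.00077) and 0.33 on log2(TPM + 1) (limma, adjusted p = 0.506). Against the control the values were -0.27 at 1 Hz and 0.18 at 4 Hz.

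Stk11ip, whose product binds the kinase LKB1 that activates AMP-activated protein kinase, is the next protein-coding gene upstream on the same strand (75498166 to 75515708). It ran from 32.4 to 45.9 CPM at 1 Hz and from 50.2 to 56.9 CPM at 4 Hz, again without overlap, for a log2(fold change) of 0.40 (0.22 to 0.58, edgeR, adjusted p = 0.243). The same separation of the libraries held for Cry2, a repressor of the circadian clock, at 41.8 to 47.7 CPM and 49.0 to 56.4 CPM and a log2(fold change) of 0.26. On log2(TPM + 1) the value of Cry2 was 0.14. Gpr15lg, a secreted ligand of the receptor GPR15, had a median of 61.9 CPM at 1 Hz and 82.1 CPM at 4 Hz, with 5 of 6 libraries at 4 Hz above the range of 1 Hz. For C3, the central complement protein, the median was 10.7 CPM at 1 Hz and 17.2 CPM at 4 Hz (log2(fold change) 0.60), also with 5 of 6 libraries above. Porcn, the acyltransferase that readies Wnt proteins for secretion, Sbno2 and the transporter gene Slco5a1 followed, with log2(fold change) values of 0.34, 0.33 and 0.53 and 4 or 5 libraries above the range of 1 Hz (edgeR, adjusted p = 0.259 for each).

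On the lower side the smallest p belonged to Smc2, which encodes a core subunit of condensin, the complex that compacts mitotic chromosomes (ENSMUSG00000028312, GRCm39 chromosome 4, 52439214 to 52488264, plus strand). It ran from 5.94 to 9.62 CPM at 1 Hz (median 7.31) and from 3.48 to 5.25 CPM at 4 Hz (median 4.84). Every library at 4 Hz lay below every library at 1 Hz, and the log2(fold change) was -0.70 with an interval of -0.98 to -0.42 (edgeR, adjusted p = 0.107). The third gene at that adjusted p, named here after its values were seen, was the long noncoding RNA Gm38534, at 5.72 to 7.50 CPM and 8.59 to 10.6 CPM. Of the 11 genes at an adjusted p under 0.25, 6 were higher and 5 lower at 4 Hz.

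The rule names 7 further genes on the lower side. Ddx10, an RNA helicase of ribosome assembly, ran from 40.1 to 60.1 CPM at 1 Hz and from 29.9 to 39.0 CPM at 4 Hz, without overlap. Polr1g, a subunit of RNA polymerase I, had medians of 30.3 and 24.2 CPM, and Baz1a, a subunit of a nucleosome-sliding complex, had medians of 65.6 and 46.9 CPM. The 1 Hz range of Baz1a, 42.6 to 84.6 CPM, overlapped most of that at 4 Hz, 36.2 to 55.4 CPM. Thap2 (log2(fold change) -0.54), Chordc1, a partner of the chaperone HSP90 (-0.42), and Trappc13 of a vesicle tethering complex (-0.40) each had 5 of 6 libraries at 4 Hz below the range of 1 Hz. Rcn1, a calcium-binding protein of the endoplasmic reticulum, ran from 143 to 169 CPM and from 117 to 141 CPM, all 6 below. In all, 26 genes (0.195%) had every library at 4 Hz above every library at 1 Hz, and 24 (0.180%) had every library below, 50 (0.376%) together. Some of the largest fold changes among them, for genes at an unadjusted p under 0.05, belonged to low-expressed genes. Sncb, Robo2 and Sema4g had log2(fold change) values of 0.65, 0.65 and 0.62, and besides Smc2 the mismatch repair gene Mlh3 had a value of -0.51.

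**Figure D1:**
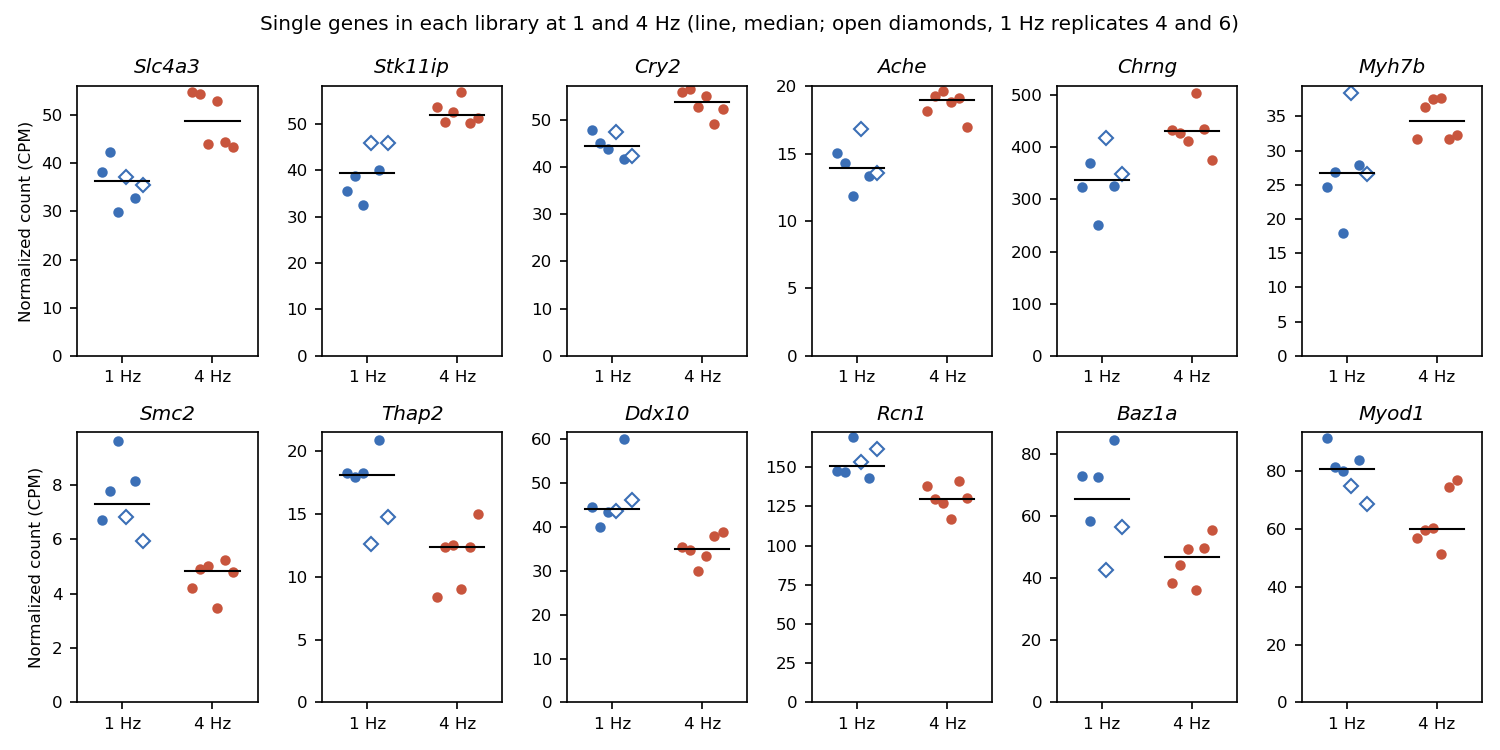
Level of 12 genes in each library, in CPM (vertical axis, from 0), for the 6 libraries at 1 Hz (blue, with replicates 4 and 6 as open diamonds) and the 6 at 4 Hz (red). The line is the median of the group. Slc4a3 runs from 29.9 to 42.3 CPM at 1 Hz and from 43.5 to 54.8 CPM at 4 Hz without overlap, whereas the ranges of Baz1a, Myod1 and Myh7b overlap.

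The contractile proteins were described by lists of genes, each summarised by the median of its members' log2(fold change) beside the median of 0.0071 of all genes tested. The sarcomere list had a median of 0.18, with 54 of 58 genes above 0, and 11 were higher and 1 was lower at an unadjusted p of 0.05, against 4.58% and 6.42% of all genes. These shares of all genes are the background for the same counts in every list below. Pdlim3, a protein of the Z disc, had medians of 118 CPM at 1 Hz and 146 CPM at 4 Hz (log2(fold change) 0.28), and Mybph, a myosin-binding protein, had medians of 766 and 866 CPM (0.21). Slow fibre genes had a median of 0.28 over 15 genes and fast fibre genes one of 0.20 over 16, so that both programmes lay on the same side. Troponin subunits, most of which belong to these lists as well, were all 8 above 0 with a median of 0.29. Without 1 Hz replicates 4 and 6 these 4 medians were 0.27, 0.51, 0.38 and 0.62. On log2(TPM + 1) they were 0.08, 0.18, 0.10 and 0.21, where the median of all genes was -0.08.

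Library by library, the spread of these lists at 1 Hz was wider than the distance between the groups. The mean level of the troponin genes, in log2 CPM centred on each gene's mean, ran from -0.59 to -0.26 in 4 libraries at 1 Hz and was 0.41 and 0.29 in replicates 4 and 6. At 4 Hz it ran from -0.07 to 0.37, between these 2 sets and overlapping the higher one. For Tnni1, the slow skeletal inhibitory subunit, the range was 811 to 1688 CPM at 1 Hz and 1153 to 1612 CPM at 4 Hz, and all 6 values at 4 Hz fell inside the range of 1 Hz. The lowest library for the sarcomere, slow fibre and fast fibre lists was 1 Hz replicate 3, at -0.57, -0.66 and -0.73. Whether the mitochondrial share, the gene length, the depth and the preparation of replicates 4 and 6 have a part in their levels was not tested.

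Among the skeletal myosin heavy chains, the motor proteins that define fibre types, 5 of 6 genes had values above 0. The slow gene Myh7 ran from 238 to 373 CPM at 1 Hz and from 337 to 376 CPM at 4 Hz, and the perinatal gene Myh8 had medians of 330 and 411 CPM, with log2(fold change) values of 0.25 for both. Myh1 and Myh4, the fast IIx and IIb genes, had values of 0.22 and 0.25, and embryonic Myh3 one of 0.07 that turned to -0.07 without 1 Hz replicates 4 and 6 and to -0.02 on log2(TPM + 1). Myh2, the IIa gene, went the other way, with a log2(fold change) of -0.48 (-0.88 to -0.08, edgeR, adjusted p = 0.406). It was -0.25 without 1 Hz replicates 4 and 6 and -0.28 without 1 Hz replicate 4 alone. Its 6 libraries at 4 Hz, 40.4 to 56.0 CPM, lay inside the range of 24.6 to 102 CPM at 1 Hz. The genes on chromosome 11 share long stretches of sequence, so that short reads may be split between them. The ancient myosin Myh7b, which was not among the 6, had medians of 26.7 and 34.4 CPM and a log2(fold change) of 0.34.

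**Figure D2:**
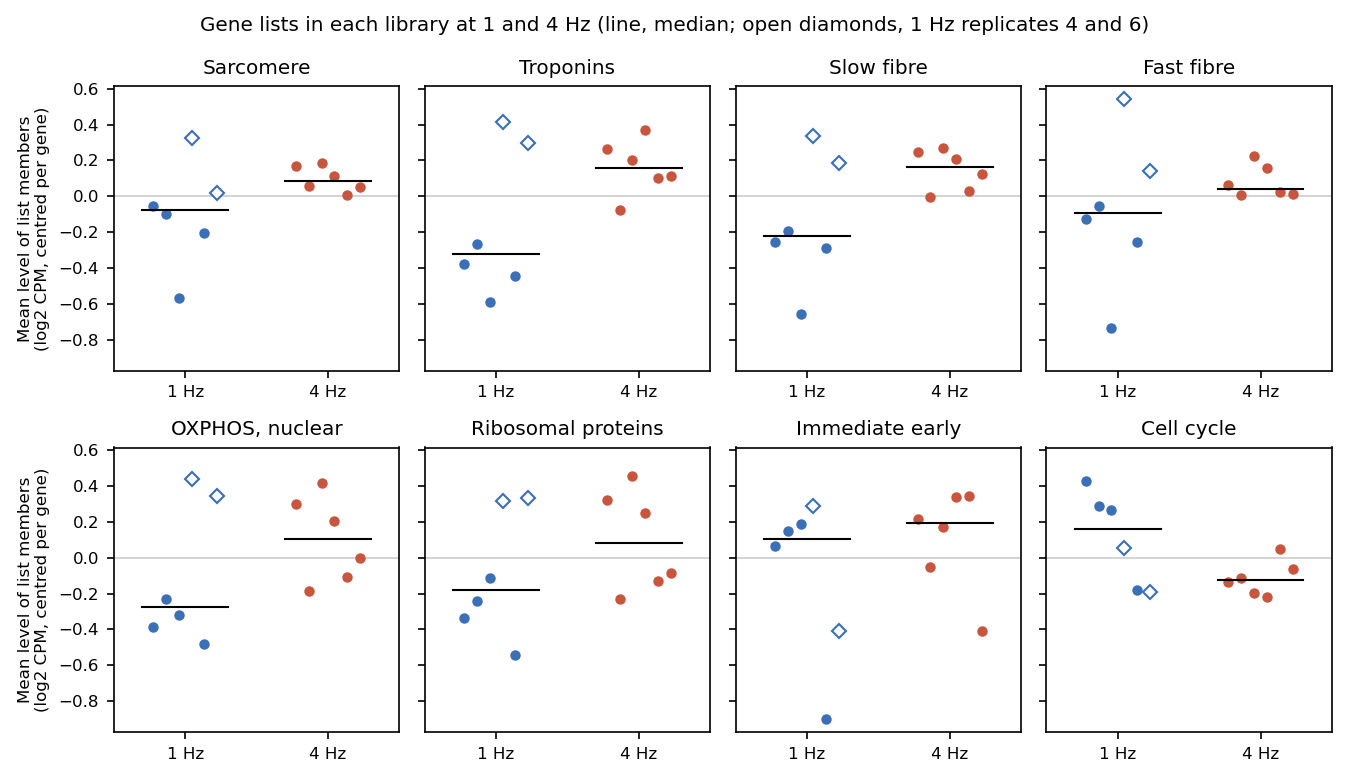
Mean level of the members of 8 gene lists in each library (vertical axis, log2 CPM centred on each gene's mean over the 12 libraries), at 1 Hz (blue, with replicates 4 and 6 as open diamonds) and 4 Hz (red). The line is the median of the group. Nuclear oxidative phosphorylation genes lie between -0.48 and -0.23 in 4 libraries at 1 Hz, at 0.44 and 0.35 in replicates 4 and 6, and between -0.19 and 0.42 at 4 Hz.

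Genes that couple excitation to contraction, such as channels and pumps of the triad, had a median of 0.15, with 22 of 26 above 0 and 7 higher and 0 lower at an unadjusted p of 0.05 in edgeR. Atp2a1, the fast calcium pump of the sarcoplasmic reticulum, had medians of 1018 and 1191 CPM, and its 6 libraries at 4 Hz fell within the 620 to 1346 CPM of 1 Hz. In TPM its medians were 669 and 689. The list of acetylcholine receptor and synapse genes also had a median of 0.15, with 16 of 20 above 0, 6 higher and 0 lower by the same test. Ache, the enzyme that clears acetylcholine, ran from 11.8 to 16.8 CPM at 1 Hz and from 17.0 to 19.6 CPM at 4 Hz without overlap (log2(fold change) 0.39, 0.19 to 0.60, edgeR, adjusted p = 0.259). Chrng, the fetal receptor subunit, had medians of 338 and 430 CPM and a log2(fold change) of 0.34, with 4 of 6 libraries above the range of 1 Hz. The medians of both lists stayed above 0 without 1 Hz replicates 4 and 6, at 0.19 and 0.08. Atrophy ubiquitin ligases and other FoxO targets had a median of 0.14, with 17 of 23 above 0, 5 higher and 0 lower. That median was 0.19 without 1 Hz replicates 4 and 6.

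For energy metabolism, the nuclear genes of oxidative phosphorylation had a median of 0.18, with 80 of 82 above 0 but only 1 at an unadjusted p of 0.05, Atp5g2, a subunit of the ATP synthase ring (medians 187 and 218 CPM). Ndufa8 of complex I had medians of 56.8 and 77.0 CPM, within ranges of 51.4 to 86.1 and 60.3 to 97.1 CPM. Without replicates 4 and 6 the median of the list was 0.48, and 65 genes were higher at an adjusted p of 0.05 and 0 were lower, where 4.89% of all genes were higher and 3.25% lower. Replicates 4 and 6 were picked out with their levels of these genes known, so these values are no evidence of a difference. The 13 protein genes of the mitochondrial genome had a median of 0.43, one of 1.17 without these libraries and one of -0.01 on log2(TPM + 1), where that of all genes was -0.08. A single library turned the sign of the list median, which was -0.24 without 4 Hz replicate 3. In edgeR 0 of them passed an adjusted p of 0.05 with or without these libraries, and 1, mt-Nd4l, passed an unadjusted p with them. The range of mt-Nd5 was wide in both groups and ran from 764 to 2310 CPM at 1 Hz and from 317 to 5908 CPM at 4 Hz. Genes of glycolysis, lactate and glycogen had a median of 0.10, with 28 of 34 above 0 and 3 higher, among them the muscle glycogen synthase gene Gys1 (406 and 443 CPM) and the hexokinase gene Hk1 (211 and 245 CPM). On log2(TPM + 1) that median was -0.01, where the median of all genes was -0.08. In TPM the medians at 1 and 4 Hz were 154.5 and 154.9 for Gys1 and 83.0 and 85.4 for Hk1.

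The machinery that makes proteins divided into parts with opposite medians. Cytosolic ribosomal protein genes had a median of 0.18, with 79 of 81 above 0 and 2 higher at an unadjusted p of 0.05 (2.47%, below the 4.58% of all genes). Those were Rps15 (medians 922 and 1178 CPM) and Fau (538 and 738 CPM), which encode proteins of the small subunit. Without 1 Hz replicates 4 and 6 the median was 0.41, and 35 were higher at an adjusted p of 0.05 and 0 lower, which again is only a description. By contrast, genes of RNA polymerase I and III and of ribosome biogenesis had a median of -0.12, with 18 of 88 above 0, 1 higher and 29 lower at an unadjusted p of 0.05. Their median was -0.19 without replicates 4 and 6 and -0.14 after removing the median of genes of like length. On log2(TPM + 1) it was -0.24, where the median of all genes was -0.08. SR proteins and hnRNP splicing factors had a median of -0.11, with 9 of 55 above 0, 0 higher and 17 lower. That median was -0.15 without 1 Hz replicates 4 and 6. Small nucleolar RNA host genes, whose introns carry guides for ribosomal RNA modification, had a median of 0.19 over 15 genes. It was 0.38 without 1 Hz replicates 4 and 6 and ran from 0.07 to 0.27 with 1 library left out, lowest without 4 Hz replicate 3.

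Cell cycle and mitosis genes had the lowest median of all 69 lists with 5 or more tested genes, -0.22, with 13 of 63 above 0, 0 higher and 13 lower at an unadjusted p of 0.05. Ccna2, the cyclin of S phase and mitotic entry, ran from 0.715 to 5.78 CPM at 1 Hz (median 2.95) and from 0.509 to 1.63 CPM at 4 Hz (median 1.24), and its log2(fold change) was -1.32 (-2.14 to -0.50, edgeR, adjusted p = 0.322). Kif23, a kinesin of the central spindle, had medians of 2.55 and 1.37 CPM and a log2(fold change) of -0.82. The list's level overlapped between the groups, since 1 Hz replicates 5 and 6, at -0.18 and -0.19, lay with the 4 Hz libraries (-0.22 to 0.05), replicate 4 was at 0.05, and replicates 1, 2 and 3 lay above, at 0.43, 0.29 and 0.27. Without 1 Hz replicates 4 and 6 the median of the list was -0.32. Under a strict filter of 50 counts in 6 libraries, which keeps fewer genes, the median was -0.04. Replication-dependent histone genes, most of whose transcripts lack a poly(A) tail, had a median of 0.19 over the 16 tested, H2ac18 among them with medians of 3.39 and 6.22 CPM. Without 1 Hz replicates 4 and 6 the median of these histone genes was 0.37. In bulk samples, fewer cells of a type and less RNA per cell cannot be told apart. The 10 myoblast markers had a median of -0.03 and the 10 myotube markers one of 0.17, and without 1 Hz replicates 4 and 6 these were -0.10 and 0.27.

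Myogenic transcription factors had a median of -0.12, with 4 of 15 above 0, 0 higher and 2 lower at an unadjusted p of 0.05 (13.3% lower, against 6.42% of all genes). Myod1, the determination factor of the lineage, ran from 68.5 to 91.4 CPM at 1 Hz (median 80.8) and from 51.5 to 77.1 CPM at 4 Hz (median 60.1). The groups overlapped in the libraries of 4 Hz replicates 5 and 6, and the log2(fold change) was -0.33 (-0.52 to -0.15, edgeR, adjusted p = 0.259). Against the control it was -1.42 at 1 Hz and -1.75 at 4 Hz. Myog, which drives terminal differentiation, had a value of -0.12 with an interval of -0.27 to 0.03, and Myf5 one of -0.15 with an interval of -0.41 to 0.10. Pax7, the satellite cell factor, was at 1.06 to 3.21 CPM at 1 Hz and 1.67 to 2.79 CPM at 4 Hz, with a value of 0.05 that was -0.23 without 1 Hz replicates 4 and 6 and -0.06 on log2(TPM + 1).

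**Figure D3:**
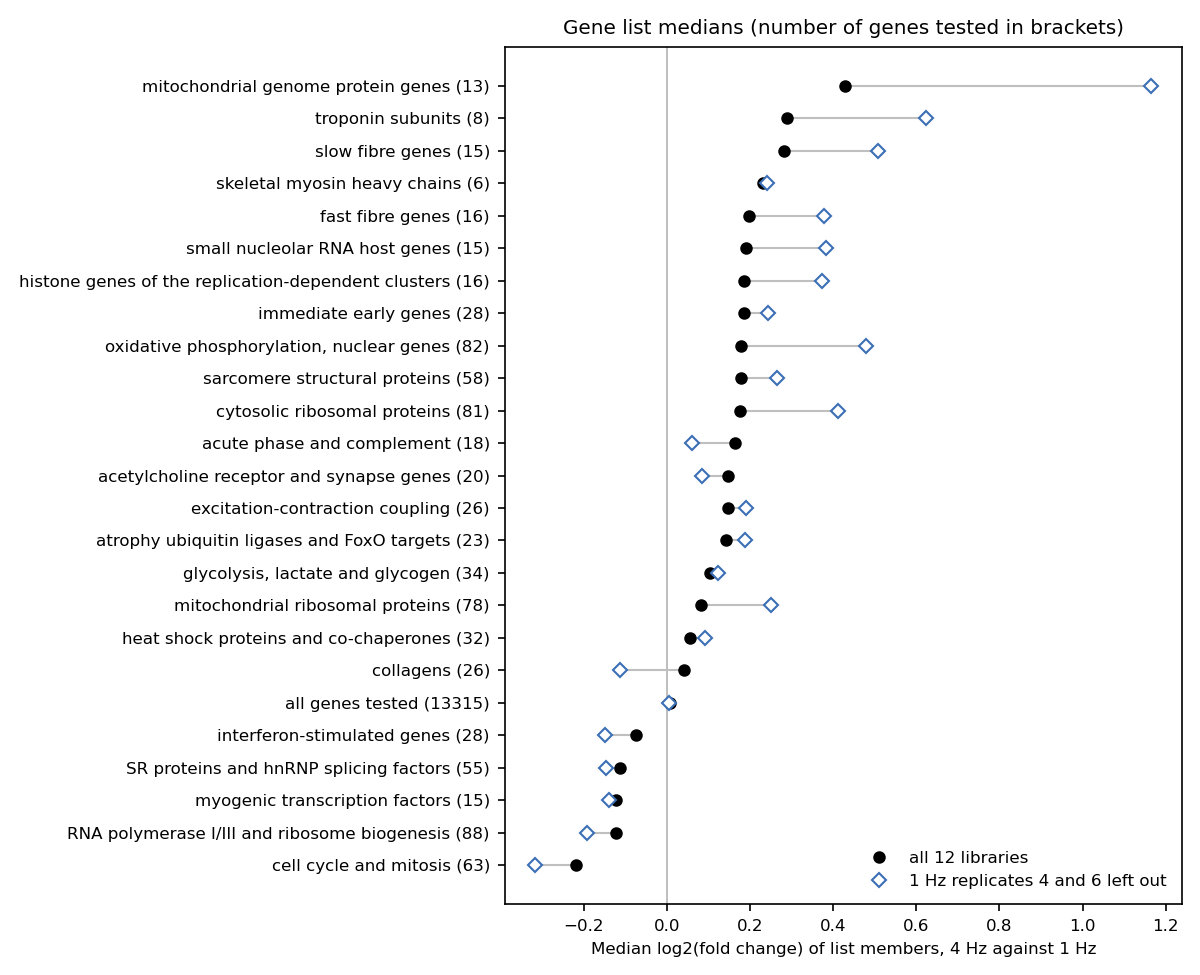
Median log2(fold change) of 4 Hz against 1 Hz (horizontal axis) over the members of 24 gene lists and of all 13315 genes tested, with all 12 libraries (black) and without 1 Hz replicates 4 and 6 (open diamonds). Numbers in brackets are genes tested. Medians run from -0.22 for cell cycle genes to 0.43 for genes of the mitochondrial genome, and leaving out these libraries moves the oxidative phosphorylation list from 0.18 to 0.48.

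Among stress and signalling lists, immediate early genes, the first transcripts made after a stimulus, had a median of 0.18, with 23 of 28 above 0 and 2 higher at an unadjusted p of 0.05. That median was 0.24 without 1 Hz replicates 4 and 6. Maff ran from 173 to 239 CPM at 1 Hz and from 204 to 268 CPM at 4 Hz, and Myc had medians of 81.1 and 102 CPM. In 1 Hz replicates 5 and 6 their mean level was -0.90 and -0.41, below the 0.07 to 0.29 of replicates 1 to 4, and in 4 Hz replicate 6 it was -0.41, against -0.05 to 0.34 in the other libraries at 4 Hz. Clock genes had a median of 0.11 over 23 genes, with 6 higher and 1 lower. Acute phase and complement genes had a median of 0.16 over 18 genes, with C3 and Serpina3n (medians 22.9 and 27.4 CPM) among 3 higher, and a median of 0.06 without 1 Hz replicates 4 and 6. Heat shock proteins had a median of 0.06 over 32 genes, with 1 higher and 2 lower, both shares below the 4.58% and 6.42% of all genes. On log2(TPM + 1) their median was -0.04, where that of all genes was -0.08. The heat shock median was 0.09 without 1 Hz replicates 4 and 6 and -0.02 without 1 Hz replicate 5. Dnajb5 and Hspb2, the members with the smallest p on the higher side, had values of 0.23 for both. Only Dnajb5 passed an unadjusted p of 0.05 in edgeR, and the interval of Hspb2 was -0.02 to 0.47. The 2 lower members were not picked by this part of the rule, which follows the sign of the list median. Calcineurin, NFAT and RCAN genes had a median of -0.06, with 5 of 18 above 0, 0 higher and 2 lower.

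Interferon-stimulated genes had a median of -0.08, one of -0.15 without 1 Hz replicates 4 and 6, with 12 of 28 above 0. At an unadjusted p of 0.05, 1 was higher and 1 lower (3.57% each, below the 4.58% and 6.42% of all genes). The lower one was Parp12 (medians 7.49 and 5.76 CPM). Trim21 followed at -0.31 with an interval of -0.71 to 0.08. Collagen genes had a median of 0.04, with 15 of 26 above 0, 1 higher and 2 lower (3.85% and 7.69%, near the 4.58% and 6.42% of all genes). The sign turned to -0.11 without 1 Hz replicates 4 and 6 and to -0.02 after removing the median of genes of like GC content. On log2(TPM + 1) the median was -0.09, near the -0.08 of all genes on that scale. Col27a1 was the member higher at an unadjusted p of 0.05, at 0.488 to 1.27 CPM and 1.14 to 1.98 CPM, and Col23a1, at 0.42, had a value of -0.07 on log2(TPM + 1).

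Small shifts also ran across all genes along properties of the transcript. When 13301 genes were split into 10 bins of equal size by spliced length, the median log2(fold change) went down from 0.12 in the shortest bin (108 to 1597 bases) to -0.05 in the longest (7722 bases or more). By GC content it went up from -0.08 in the lowest bin to 0.09 in the highest. Without 1 Hz replicates 4 and 6 the range by length was 0.27 to -0.16, and that by GC content -0.06 to 0.08. Ribosomal protein and oxidative phosphorylation genes are short. After removing the median of the same bin of length, their list medians were 0.11 and 0.13, and those of the troponins, the sarcomere and the cell cycle were 0.18, 0.16 and -0.20. Whether length and GC content have a part in the list medians beyond this was not tested.

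**Figure D4:**
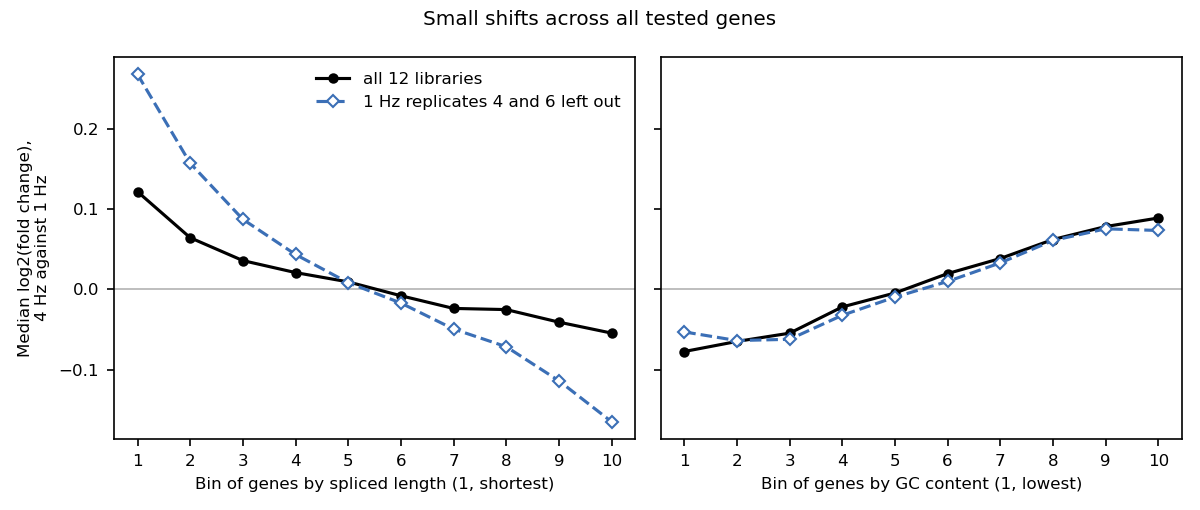
Median log2(fold change) of 4 Hz against 1 Hz (vertical axis) in 10 bins of the tested genes by spliced length (left) and GC content (right), with all 12 libraries (black) and without 1 Hz replicates 4 and 6 (open diamonds). The line by length goes from 0.12 to -0.05 with all libraries and from 0.27 to -0.16 without these replicates, and the lines by GC content lie close together.

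The 2 libraries that stand apart bear on the count of genes as well as on the lists. Without 1 Hz replicates 4 and 6, 1099 of 13489 genes (8.15%) passed an adjusted p of 0.05 in edgeR, 660 higher and 439 lower at 4 Hz, and 347 (2.57%) were called with the threshold on fold change. The pair was picked out with its levels of oxidative phosphorylation genes known, so these counts are no evidence of a difference. Kept in this fit were 4 Hz replicates 3 and 4, whose mean lengths of 3944 and 4012 bases were near those of the pair (3977 and 4008). Each of the other 29 pairs of libraries from 1 group, left out in the same way, gave 0 to 7 genes at the adjusted p and 0 to 4 called. Leaving out a single library gave 0 to 2 at the adjusted p. A few genes at the top of that fit, named after their values were seen, show what the pair changes. Tnni2, the fast troponin inhibitory subunit, was at 567 to 708 CPM in the other 4 libraries at 1 Hz, at 1159 to 1228 CPM in replicates 4 and 6, and at 774 to 1241 CPM at 4 Hz. Uqcr11 of complex III was at 63.6 to 70.1, 118 to 128 and 79.5 to 133 CPM in the same order. On the lower side the actin-binding gene Lasp1 was at 192 to 220, 107 to 141 and 109 to 155 CPM. In each of these genes replicates 4 and 6 lay on the side of 4 Hz, beyond the other libraries of their own group. Slc4a3, Stk11ip, Smc2 and Ache separated the 2 frequencies with replicates 4 and 6 included, but not all were free of this pattern. In Stk11ip both replicates lay above the other 4 libraries at 1 Hz (32.4 to 40.1 CPM), toward 4 Hz, and reached 45.9 CPM. The 1 Hz library nearest to 4 Hz was replicate 4 for Ache (16.8 CPM) and replicate 6 for Smc2 (5.94 CPM). In Slc4a3 both replicates lay within the range of the other 4 libraries.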

How the data were processed

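RNA from wells of the 60-min experiment was sequenced in read pairs after poly(A) selection. Per the labels, samples with little RNA went through ribodepletion, and which these were is not stated. The authors processed the reads with nf-core/rnaseq (STAR and Salmon, mouse genome GRCm39) and deposited expected counts per gene, not normalized, and TPM per gene, scaled for length and depth. The labels also name BWA 0.7.12-r1039 and bedtools 2.25.0. The strand setting of the counting was not given in the sources used here, and 42 of the 65 named genes overlap a gene on the other strand, whose reads may be counted with them.

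Estimated counts were rounded. The filter was filterByExpr with its minimum count of 10 and total of 15. Counts were scaled by TMM and tested in edgeR 4.0.16 (R 4.3.3, quasi-likelihood F test, robust) in 1 fit of all 24 libraries with a mean per condition. Biological coefficient of variation was 14.8%. A call needed an adjusted p (Benjamini-Hochberg) below 0.05 together with a log2(fold change) beyond 0.5 in either direction. Alternatives used DESeq2 1.42.0, apeglm 1.24.0 and limma 3.58.1, and scripts were tested on simulated data. GENCODE vM39 gave positions, length and GC content for 98.9% of identifiers. Levels are TMM-scaled CPM.

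The named genes are the 8 with the smallest p in each direction (average log2 CPM of at least 1, leaving out symbols that are a Gm number, a Rik clone or an identifier), the 3 largest fold changes in each direction among genes without overlap, 2 members of each of 19 lists, the myosin and myogenic genes, and genes called by DESeq2. Some genes that this rule names are not reported here. Members, lists and tests were chosen with earlier results of these data known. Pairs of libraries and the centring on length and GC content were added after the data were seen.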

Additional observations from a re-analysis of the deposited data

Results flagged for a closer look

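In 180 groups of 6 libraries, over the named genes and lists at 1 and 4 Hz, 5 had a library far from the others by Dixon's criterion. Chance alone gives about 1 group in 20. Chordc1 was at 50.6 CPM in 1 Hz replicate 6, with the next library at 39.9 CPM. Ddx10 was at 60.1 CPM in 1 Hz replicate 5, with the next at 46.1 CPM. Myl3, a slow myosin light chain, was at 3.39 CPM in 4 Hz replicate 2, below the next at 4.28 CPM. Myh2 was at 56.0 CPM in 4 Hz replicate 6, above the next at 43.2 CPM. The mean level of heat shock proteins and co-chaperones was -0.71 in 1 Hz replicate 5 (log2 CPM, centred on each gene's mean), below the next at -0.03.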

How the results depend on the processing

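The count of called genes, 0 with all 12 libraries in edgeR, was 0 with RLE or upper-quartile factors, without a filter, with a strict filter, with only the 1 and 4 Hz libraries, on log2(TPM + 1) and log2(TPM + 0.1), with quality weights in limma-voom and with apeglm. It was 3 with the DESeq2 Wald test, 1 without 1 Hz replicates 1 and 2, 1 without 1 Hz replicates 1 and 5, 2 without 1 Hz replicates 2 and 4, 347 without 1 Hz replicates 4 and 6, 4 without 4 Hz replicates 3 and 6, 1 without 4 Hz replicates 4 and 5 and 2 without 4 Hz replicates 5 and 6. At an adjusted p of 0.05 alone, 27 genes passed with DESeq2, with or without apeglm, and 1099 without 1 Hz replicates 4 and 6. Leaving out each library in turn gave 0 to 1 called, 0 to 2 at the adjusted p and 905 to 2654 at an unadjusted p, the lowest without 1 Hz replicate 5 and the highest without 1 Hz replicate 4. Without 4 Hz replicate 6, Slc4a3 and Gpr15lg passed the adjusted p, and without 1 Hz replicate 2 Slc4a3 did. At an unadjusted p, 817 genes passed with only the 1 and 4 Hz libraries and 3833 without 1 Hz replicates 4 and 6. The split of these genes into 610 higher and 855 lower was 177 and 1051 on log2(TPM + 0.1).

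The labels number the replicates, but equal numbers did not pair the samples, with correlations of -0.11 to 0.24 between same-numbered libraries and the best match at the same number for 1 of 6. With the replicate number as a block, 1 gene, Smc2, was called and 1 passed the adjusted p.

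The median over all genes, 0.0071, was -0.0085 with RLE factors, -0.081 on log2(TPM + 1), -0.091 on log2(TPM + 0.1) and 0.033 with DESeq2. Of 1480 values of single named genes under an alternative, 50 passed an adjusted p of 0.05. Most of these 50 came from the fit without 1 Hz replicates 4 and 6, whose values are no evidence of a difference. Others came from DESeq2. Besides the 50, 14 values changed sign. The latter were Col23a1 on log2(TPM + 1) (-0.074) and log2(TPM + 0.1) (-0.15), Pax7 on log2(TPM + 1) (-0.060), on log2(TPM + 0.1) (-0.093), with limma-voom (-0.20) and without 1 Hz replicates 4 and 6 (-0.23), Myh3 on log2(TPM + 1) (-0.022), on log2(TPM + 0.1) (-0.021) and without 1 Hz replicates 4 and 6 (-0.066), and values with 1 library left out, which ran from -0.090 to 0.22 for Pax7, from -0.013 to 0.19 for Myh3 and, lowest without 4 Hz replicate 3, from -0.036 to 0.95 for mt-Nd5. The cause was not tested. With 1 library left out, list medians ran from -0.24 to 0.77 for the mitochondrial genome, from 0.10 to 0.31 for oxidative phosphorylation (lowest without 1 Hz replicate 5, highest without 1 Hz replicate 4), from 0.09 to 0.27 for ribosomal proteins (lowest without 1 Hz replicate 5, highest without 1 Hz replicate 6), from -0.25 to -0.13 for the cell cycle (highest without 1 Hz replicate 1), from 0.07 to 0.27 for immediate early genes (lowest without 1 Hz replicate 5), and from -0.055 to 0.13 for collagens (lowest without 1 Hz replicate 6, highest without 1 Hz replicate 1). At 6 libraries per group and 8132175 counts or more, differences under 0.5 were often not detectable, also in genes above 10 CPM. Slc4a3, with medians of 36.4 and 48.7 CPM and a log2(fold change) of 0.44, did not pass (edgeR, adjusted p = 0.107).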

Other observations

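Gene families were also read from shared symbol stems, some of which overlap the lists above. Of 148 stems with at least 10 genes tested, the lowest median log2(fold change) at 4 Hz against 1 Hz was that of Srsf, the serine- and arginine-rich splicing factors, at -0.21 over 10 genes, with 1 above 0 and 5 lower at an unadjusted p of 0.05 (edgeR). Cnot, the subunits of the deadenylase complex, and Utp, the factors of early ribosome assembly, each had 0 of 11 genes above 0, with medians of -0.13 and -0.12. Ints, the Integrator complex, had a median of -0.13 over 16 genes. At the other end stood Ndufb, subunits of complex I, with 12 of 12 above 0 and a median of 0.24, and Myh with 0.23 over 12 genes. Without 1 Hz replicates 4 and 6 the median of Ndufb was 0.63. That of Srsf was -0.19 and no longer the lowest, which was that of Ptpn at -0.26, and those of Cnot and Utp were -0.21 and -0.22.

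Slc4a3 and Stk11ip, which had the smallest p among protein-coding genes higher at 4 Hz, are neighbours, 6799 bases apart on the same strand of chromosome 1 with 1 annotated pseudogene between them. Neither overlaps an annotated gene on the other strand. Reads that run past the end of Stk11ip were not examined here.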
